A study of Mus musculus with 8 samples.

Results

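Genes of amino acid breakdown and of the urea cycle were read as a group in mouse liver with and without the corepressor NCOR. The group was set as 55 named enzymes, and those with a probe set annotated to that gene alone were kept, each on its brightest probe set. Of the 55, 51 were measured among 22180 genes in all. Gls2, Gstz1, Sds and Sdsl were not analysed here, so the glutaminase step, the maleylacetoacetate step and the direct deamination of serine are not covered.

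All 8 livers came from 3-month-old mice kept on normal chow under a regular light cycle. Mice with a floxed NCOR gene had received a virus of the AAV type through a vein. In the 4 called NCOR_KO it expressed Cre, the recombinase that cuts out DNA between lox sites, and in the 4 controls called WT it expressed the fluorescent protein GFP. Tissue was frozen 2 weeks later, at 5 pm or ZT10. Whether the controls also carried the floxed allele is not settled, since their genotype is labelled wild-type but the series describes only floxed animals. The virus differs with the group, so Cre itself and loss of NCOR cannot be told apart. Which promoter drove the virus is not given in the sources used here, and the level of NCOR itself was not analysed here. The replicates are called biological without being tied to animals, so p-values measure only the spread between these samples.

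The liver is the main site where amino acid carbon is oxidised and where its nitrogen is made safe. Transaminases move the amino group to glutamate, glutamate dehydrogenase releases ammonia, and the urea cycle, which spans mitochondria and cytosol, turns ammonia into urea. Separate routes open the rings of tyrosine, tryptophan and histidine, split glycine, move methyl groups through methionine, and turn cysteine into taurine. NCOR is recruited by nuclear receptors to genes they hold down, together with the deacetylase HDAC3.

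Prodh2 and Gldc were the members that passed the test, and the promoters of both are shown because NCOR acts through nuclear receptors. The sequences are RefSeq's on GRCm38.p6, the 250 bases before the transcription start, 5′ to 3′ on the strand of the gene. Prodh2 reads from chr7:30493408-30493657 on the plus strand, and Gldc from chr19:30175442-30175691 on the minus strand. Capitals mark AGGTCA, the hexamer that many nuclear receptors read, on either strand.
Prodh2: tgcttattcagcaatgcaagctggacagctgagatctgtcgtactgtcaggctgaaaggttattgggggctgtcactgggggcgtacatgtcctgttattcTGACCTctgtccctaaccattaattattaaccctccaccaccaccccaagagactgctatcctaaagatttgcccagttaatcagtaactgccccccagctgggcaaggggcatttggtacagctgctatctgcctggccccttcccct
Gldc: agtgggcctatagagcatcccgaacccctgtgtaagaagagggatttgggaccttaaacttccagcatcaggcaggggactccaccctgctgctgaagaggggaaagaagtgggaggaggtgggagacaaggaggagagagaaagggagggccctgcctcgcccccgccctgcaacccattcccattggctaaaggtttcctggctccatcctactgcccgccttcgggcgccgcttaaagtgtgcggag
Prodh2 holds the hexamer 1 time, on the opposite strand, where it reads TGACCT and begins 149 bases before the start. These letters are not in the Gldc window. The hexamer occurs in 14.02% of 32851 promoter windows of that length. Among the 51 measured members, 42 had a promoter in the table and 15 of those held it. Counted by window, as for the background, 15 of their 45 windows held it (33.3%). The difference in share was not tested, and windows of genes at a like level were not counted. A match of letters is a description of the sequence and not a binding site.

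Most members lay at a high level, and few passed the test. Of the 51, 1 rose, 1 fell and 49 did not pass an adjusted p of 0.05 over all genes (limma). The rule called 1.65% of all genes, 0.816% higher and 0.834% lower, a split of 181 genes that rose and 185 that fell, or 147 and 383 with each array centred on its median. The median log2 change of the members (NCOR_KO minus WT) was -0.01, beside 0.01 over all genes. For 47 of the 51 the 95% interval of the change lay within 1.5-fold in either direction (92.2%, against 95.5% of all genes), and for 29 within 1.2-fold (56.9%, against 49.0%). Among genes above a log2 intensity of 10 these shares were 93.4% and 60.2%. The 40 members above that level had 92.5% and 62.5%, so the members were near the background. The members whose interval reached past 1.5-fold were Prodh2, Gldc, Shmt1 and Csad. Liver was measured whole, so fewer cells of a type and less RNA per cell cannot be told apart.

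At an unadjusted p of 0.05, 5 members were higher and 8 lower, where 7.75% and 8.15% of all genes met that rule. All 4 NCOR_KO values lay above all 4 WT values in 6 members and below them in 5, against 4.9% and 5.49% of all genes. The members are brighter than most genes, with 40 above a log2 intensity of 10 and 17 above 12. Among the 40 members above 10, 6 were separated upward and 4 downward, while among all 1554 genes above 10 the shares were 11.1% and 10.9%. The adjusted rule called 2.50% of those 40 members and 4.38% of those 1554 genes. Prodh2, at a mean of 9.69, lies just under that cutoff and is not among the 40. Over all 51 members the adjusted rule called 3.92%, against 1.65% of all genes.

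**Figure D1:**
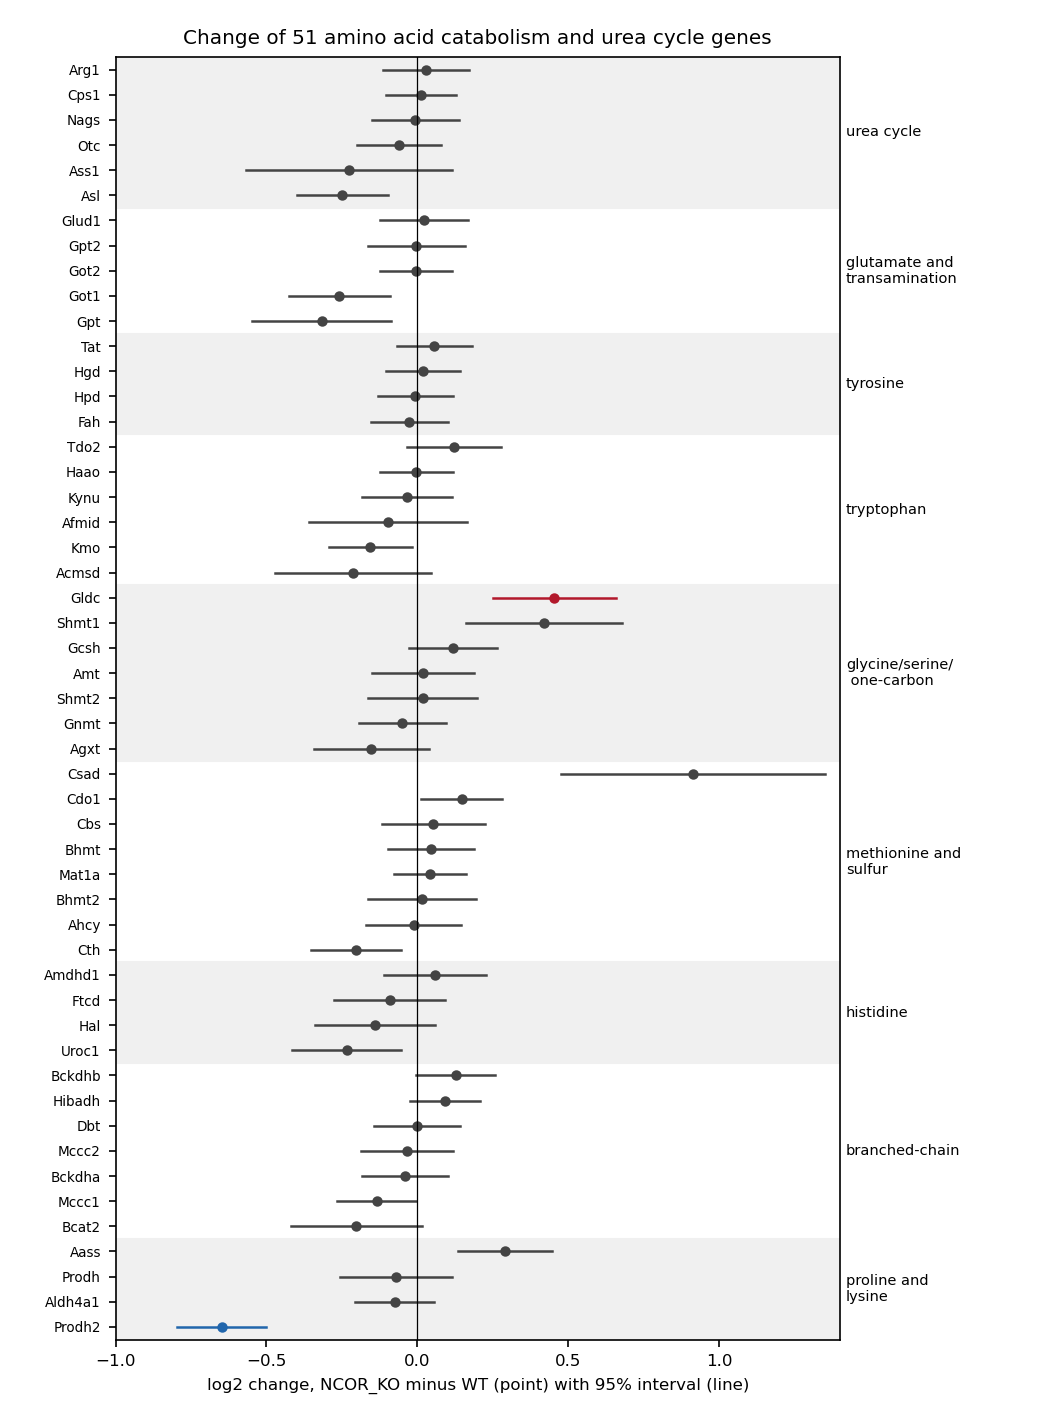
Log2 change, NCOR_KO minus WT (point), with its 95% interval (line) for each of the 51 measured members, grouped by pathway, with the adjusted-p call in red (rose) or blue (fell). Prodh2 at -0.65 and Gldc at 0.45 are the coloured genes, Csad at 0.91 lies farthest right with a wide interval, and most of the others sit close to 0.

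Prodh2 had the clearest change. It encodes hydroxyproline dehydrogenase, the first step in the breakdown of the hydroxyproline that collagen releases. Its log2 intensity was 9.92, 9.95, 10.09 and 10.10 in WT replicates 1 to 4. In NCOR_KO it was 9.33, 9.33, 9.33 and 9.46. All 4 NCOR_KO values lay well below the lowest control. Prodh2 fell by 0.65 ± 0.07 on the log2 scale (SE, 4 arrays per group), a 1.57-fold difference with an adjusted p of 0.00153. It passed in all 16 alternative fits, with changes of -0.69 to -0.62.

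The other steps of the hydroxyproline route were measured too. Aldh4a1, the mitochondrial dehydrogenase that takes the next step for proline and hydroxyproline alike, was at a log2 change of -0.07 (95% interval -0.21 to 0.06). Hoga1, the aldolase that yields glyoxylate, was at -0.06 ± 0.06 (SE), and Grhpr, which reduces glyoxylate, at -0.08 ± 0.07. Agxt, which converts glyoxylate to glycine, was at -0.15 ± 0.09 with an adjusted p of 0.423. None of these 4 passed. Prodh, the proline dehydrogenase, was at -0.07 (interval -0.26 to 0.11).

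Lysine breakdown begins with Aass, a bifunctional enzyme of the saccharopine route. Its log2 intensity was 11.91, 12.11, 11.96 and 12.01 in WT and 12.30, 12.43, 12.23 and 12.20 in NCOR_KO. The groups did not overlap. The log2 change of 0.29 ± 0.07 had an adjusted p of 0.0751 and did not pass. It went past the threshold with array weights (adjusted p = 0.0440), with a trend and robust variance (0.0269) and over bright genes only (0.0451). Proline and lysine together had 4 measured members, of which 1 fell and 3 did not pass.

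Glycine and serine genes held the member that rose. Gldc encodes the P-protein, the decarboxylating subunit of the glycine cleavage system. Its log2 intensity was 10.26, 10.71, 10.42 and 10.49 in WT and 10.97, 11.02, 10.84 and 10.89 in NCOR_KO. Every NCOR_KO array was above the highest control, WT replicate 2. Gldc rose by 0.45 ± 0.09 (SE), or 1.37-fold, with an adjusted p of 0.0402.

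That call was close to the threshold and was lost in 9 of 16 alternative fits. Leaving out WT replicates 1, 3 and 4 in turn gave adjusted p-values of 0.0877, 0.0976 and 0.0948. Without NCOR_KO replicates 1 to 4 in turn they were 0.1005, 0.127, 0.0712 and 0.0762. With each array centred on its median the value was 0.0734. The change itself stayed between 0.38 and 0.53 throughout.

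The partner subunits of Gldc did not pass. Amt, the aminomethyltransferase or T-protein, was at a log2 change of 0.02 (interval -0.15 to 0.19). Gcsh, the lipoyl carrier or H-protein, was at 0.12 (interval -0.03 to 0.26). Dld, the dihydrolipoyl dehydrogenase that several complexes share, was at 0.13 ± 0.06 (SE) with an adjusted p of 0.372. Whether Gldc differed from its partners was not tested.

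Shmt1, the cytosolic serine hydroxymethyltransferase, read 10.25, 10.37, 10.83 and 10.57 in WT and 10.85, 10.83, 10.96 and 11.06 in NCOR_KO. WT replicate 3 stood level with the lowest NCOR_KO array, so the groups met. The log2 change was 0.42 ± 0.12 with an adjusted p of 0.111, and 0.53 with an adjusted p of 0.0385 without WT replicate 3. Gnmt, which uses glycine to dispose of excess methyl groups, read 12.26, 12.46, 12.46 and 12.35 in WT and 12.30, 12.31, 12.30 and 12.40 in NCOR_KO. Its NCOR_KO values lay inside the control range, at a log2 change of -0.05 (interval -0.19 to 0.09). Across the 7 measured genes of glycine, serine and one-carbon metabolism 1 rose, 0 fell and 6 did not pass, with a median log2 change of 0.02.

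**Figure D2:**
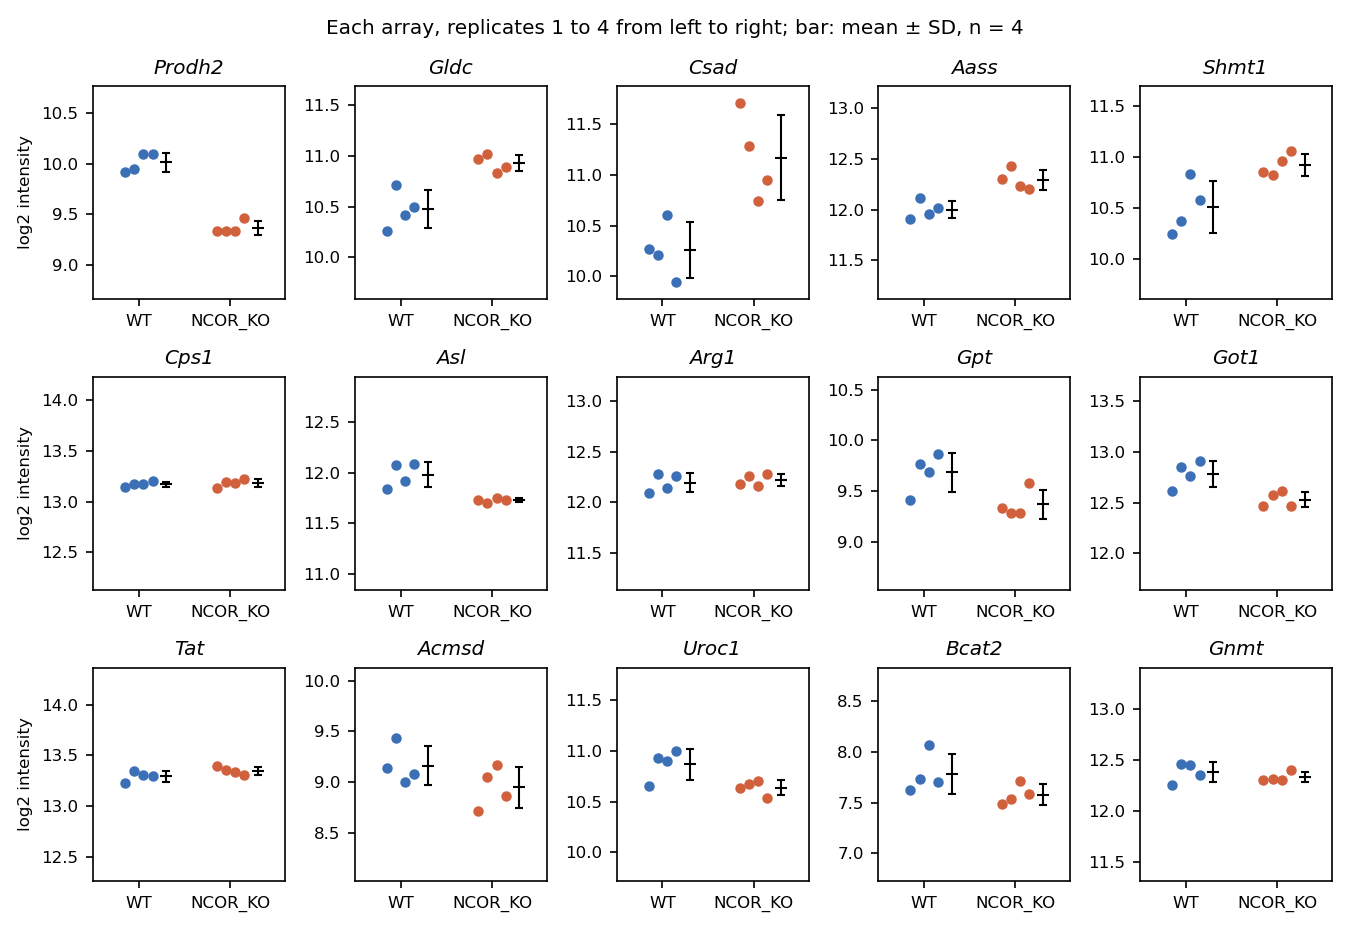
Log2 intensity (vertical axis, the same span in every panel) on each WT and NCOR_KO array for 15 members, with the mean and SD of 4 arrays at the right of each group. Prodh2, Gldc, Csad, Aass, Asl and Got1 show no overlap between groups, whereas Cps1, Arg1, Tat and Gnmt lie within the control range or close to it.

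In sulfur amino acid metabolism the largest difference was that of Csad, the cysteine sulfinic acid decarboxylase of taurine synthesis. Its log2 intensity was 10.27, 10.21, 10.61 and 9.94 in WT and 11.71, 11.28, 10.74 and 10.95 in NCOR_KO. The groups did not overlap, but NCOR_KO replicate 3 came near WT replicate 3, and the NCOR_KO arrays spread widely (SD 0.42, n = 4). The log2 change of 0.91 ± 0.20 was 1.88-fold with an interval of 0.47 to 1.35. With an adjusted p of 0.0505 it did not pass.

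Csad passed in 3 of 16 alternative fits. These were the fit without NCOR_KO replicate 3 (log2 change 1.06, adjusted p = 0.0430), the one with arrays centred on their medians (0.0427) and the one over bright genes only (0.0369). Cdo1, the dioxygenase that makes the substrate of Csad, read 12.49, 12.61, 12.56 and 12.42 in WT and 12.63, 12.67, 12.63 and 12.73 in NCOR_KO. These groups also stood apart, by a narrow gap. Its log2 change was 0.15 ± 0.06 with an adjusted p of 0.272.

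Cth, cystathionine gamma-lyase, which releases cysteine, read 11.87, 12.02, 11.81 and 12.05 in WT and 11.71, 11.74, 11.78 and 11.71 in NCOR_KO. Every NCOR_KO value was below every control, at a log2 change of -0.20 ± 0.07 and an adjusted p of 0.177. The preceding enzyme Cbs was at 0.05 (interval -0.12 to 0.23). In the methionine cycle, Mat1a, the liver methionine adenosyltransferase, was at 0.04 ± 0.05 and Ahcy, which clears S-adenosylhomocysteine, at -0.01 ± 0.07. A second, dimmer probe set of Ahcy was at -0.20 ± 0.07 (adjusted p = 0.182), with all 4 NCOR_KO values below all 4 controls, and the mean of both gave -0.11. Bhmt2, a homocysteine methyltransferase, was at 0.01 ± 0.08.

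Bhmt, the betaine-dependent methyltransferase, read 5.84, 5.78, 5.75 and 5.67 in WT and 5.68, 5.82, 5.83 and 5.88 in NCOR_KO. These values lie at the level of the median gene, 5.88, although Bhmt is known as an abundant liver transcript. How well the Bhmt probe set follows the transcript was not tested. The log2 change of Bhmt was 0.04 ± 0.06. Of 8 members in the sulfur group 0 rose, 0 fell and 8 did not pass. Their median log2 change was 0.04.

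The urea cycle showed no member past the threshold. Cps1, the carbamoyl phosphate synthetase that commits ammonia to the cycle, read 13.14, 13.18, 13.17 and 13.20 in WT and 13.14, 13.20, 13.18 and 13.22 in NCOR_KO. Arg1, the arginase that releases urea, read 12.09, 12.28, 12.14 and 12.26 in WT and 12.18, 12.25, 12.16 and 12.28 in NCOR_KO. In both genes the groups lay on top of each other. Cps1, at a mean of 13.18, was close to the brightest gene, Alb at 13.52. Whether the arrays still follow a change in full at that level was not tested. The log2 change was 0.01 (interval -0.11 to 0.13) for Cps1 and 0.03 (interval -0.11 to 0.17) for Arg1.

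Asl, the argininosuccinate lyase, had the largest change of the cycle. It read 11.84, 12.08, 11.91 and 12.08 in WT and 11.73, 11.70, 11.75 and 11.73 in NCOR_KO. The NCOR_KO arrays agreed closely and lay below every control. The log2 change of -0.25 ± 0.07 (1.19-fold) had an adjusted p of 0.108, and 0.0479 with a trend and robust variance. Ass1, the synthetase of the step before, was at -0.23 with a wide interval of -0.57 to 0.12. Its NCOR_KO arrays ran from 7.03 to 7.78 and its controls from 7.31 to 7.87. Its mean of 7.53 was the lowest level in the cycle, and how well this probe set follows the transcript was not tested.

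Otc, the ornithine transcarbamylase, was at -0.06 ± 0.06, and Nags, which makes the activator of Cps1, at -0.01 ± 0.07. Nags has a second, dimmer probe set, at -0.10 ± 0.11. Over the 6 genes of the cycle 0 rose, 0 fell and 6 did not pass, and all 6 intervals lay within 1.5-fold.

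Around glutamate, the largest differences were those of the cytosolic transaminases, and neither passed. Got1, the cytosolic aspartate aminotransferase, read 12.62, 12.85, 12.76 and 12.91 in WT and 12.46, 12.57, 12.61 and 12.47 in NCOR_KO. No NCOR_KO value reached the lowest control, although NCOR_KO replicate 3 came close to it. The log2 change was -0.26 ± 0.08 with an adjusted p of 0.129. Gpt, the cytosolic alanine aminotransferase, read 9.41, 9.77, 9.69 and 9.87 in WT and 9.33, 9.28, 9.28 and 9.58 in NCOR_KO.

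NCOR_KO replicate 4 and WT replicate 1 made the Gpt groups overlap, and its change of -0.32 ± 0.10 had an adjusted p of 0.171. Their mitochondrial counterparts Got2 and Gpt2 had intervals of -0.12 to 0.11 and -0.16 to 0.16. Glud1, glutamate dehydrogenase, was at 0.02 ± 0.07. None of the 5 measured members of this group passed.

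Relations between related enzymes were tested within arrays, where a shift of a whole array cancels. The comparison took each of the 5 pairs among the members that are close relatives, after their single values were known, with exact permutation tests, two-sided, adjusted over the 5. The smallest p this design allows is 0.0286. The log2 ratio of Prodh2 to Prodh was lower in NCOR_KO by 0.58, from -0.03 ± 0.06 to -0.61 ± 0.06 (SD, n = 4, exact p = 0.0286, adjusted p = 0.0476). The log2 ratio of Shmt1 to its mitochondrial relative Shmt2 went from -0.93 ± 0.17 to -0.53 ± 0.09 (SD, n = 4, exact p = 0.0286, adjusted p = 0.0476).

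The ratio of Gpt to Gpt2 went from -2.08 ± 0.08 to -2.39 ± 0.14 (SD, n = 4, exact p = 0.0286, adjusted p = 0.0476). For Got1 over Got2 the groups overlapped, at -0.16 ± 0.14 and -0.42 ± 0.11 (SD, n = 4, exact p = 0.0571, adjusted p = 0.0714). Bhmt over Bhmt2 differed by 0.03 ± 0.09 (SE, exact p = 0.943), with the Bhmt probe set at the level of the median gene. In 3 of the 5 pairs, then, all 4 NCOR_KO ratios lay on the same side of all 4 control ratios. These 3 share the smallest p the design allows, so their equal adjusted p-values depend on how many of the 5 pairs reached it. How many other gene pairs would be so separated was not computed. Taken singly, Shmt1 and Gpt did not pass over all genes (limma, adjusted p = 0.111 and 0.171). Since the single values were known beforehand, the ratios largely restate them and are not separate evidence of a change. Probe sets of close relatives may share signal, which was not tested.

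**Figure D3:**
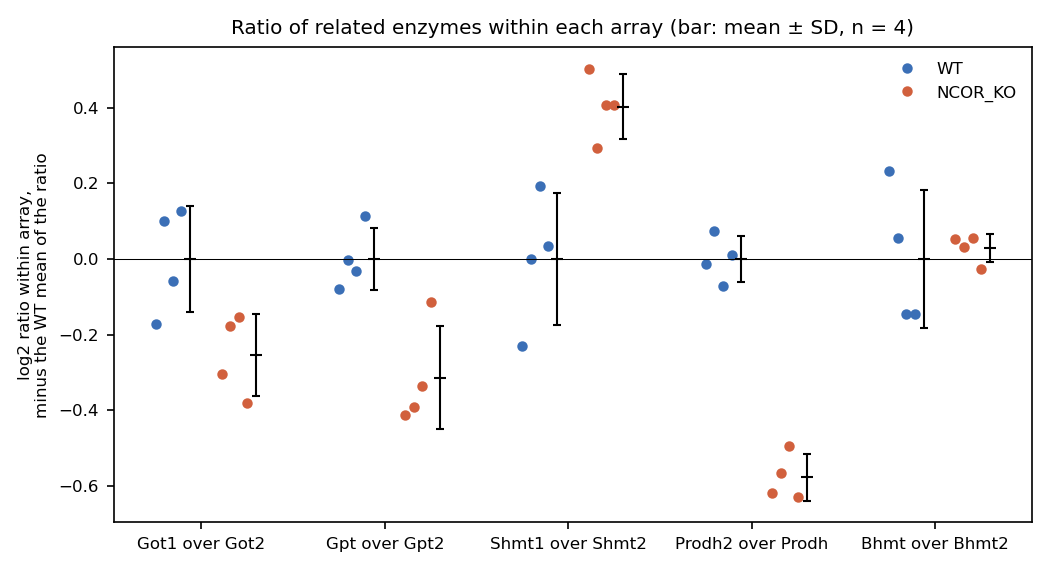
Log2 ratio of related enzymes within each array, less the WT mean of that ratio (vertical axis), with the mean and SD of 4 arrays beside each group. The NCOR_KO points of Prodh2 over Prodh and of Gpt over Gpt2 lie below all WT points, those of Shmt1 over Shmt2 lie above them, and the other pairs overlap.

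In tyrosine breakdown no change was over 0.06 in size. Tat, the tyrosine aminotransferase that glucocorticoids are known to induce, read 13.22, 13.35, 13.31 and 13.29 in WT and 13.40, 13.35, 13.34 and 13.30 in NCOR_KO. The groups overlapped, at a log2 change of 0.06 (interval -0.07 to 0.18). Like Cps1, Tat lay near the top of the intensity range, where the response of the arrays was not tested. Hpd, Hgd and Fah, which oxidise and split the ring downstream, lay at -0.01, 0.02 and -0.03, each with an SE of 0.06. All 4 measured genes had intervals within 1.2-fold.

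On the tryptophan route to NAD, Tdo2, the dioxygenase that opens the indole ring, was at 0.12 (interval -0.04 to 0.28). Kmo, the kynurenine hydroxylase, read 11.99, 12.08, 12.03 and 12.13 in WT and 11.80, 11.92, 11.92 and 11.98 in NCOR_KO. Its groups were separated by a narrow gap, with a change of -0.16 ± 0.06 and an adjusted p of 0.253. Acmsd, which diverts the route away from NAD, read 9.13, 9.44, 8.999 and 9.07 in WT and 8.71, 9.05, 9.17 and 8.86 in NCOR_KO.

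Its groups overlapped, and the change of -0.21 ± 0.12 had an adjusted p of 0.405. Afmid was at -0.10, Kynu at -0.03 and Haao at less than 0.01 in size. Of the 6 tryptophan members 0 rose, 0 fell and 6 did not pass.

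Histidine breakdown runs through Hal, Uroc1, Amdhd1 and Ftcd in that order. Uroc1, urocanase, read 10.65, 10.92, 10.90 and 11.001 in WT and 10.63, 10.67, 10.70 and 10.53 in NCOR_KO. WT replicate 1 lay among the NCOR_KO values. The change was -0.23 ± 0.08 with an adjusted p of 0.195. Hal, the histidine ammonia-lyase, was at -0.14, Amdhd1 at 0.06 and Ftcd, which passes the formimino group to folate, at -0.09, and 0 of the 4 passed.

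Among branched-chain genes the largest change was that of Bcat2, the mitochondrial aminotransferase, which hepatocytes are known to make sparingly. It read 7.62, 7.73, 8.07 and 7.71 in WT and 7.48, 7.53, 7.72 and 7.59 in NCOR_KO. The groups overlapped (log2 change -0.20 ± 0.10, adjusted p = 0.345). Bckdhb, the E1 beta subunit of the branched-chain ketoacid dehydrogenase, read 10.89, 10.90, 10.91 and 10.92 in WT and 10.94, 10.99, 11.07 and 11.12 in NCOR_KO.

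The Bckdhb groups stood apart by a small margin, at 0.13 ± 0.06 with an adjusted p of 0.327. Its partner subunits Bckdha and Dbt were at -0.04 ± 0.06 and less than 0.01 in size. Hibadh, of the valine branch, was at 0.09, while the subunits of the leucine carboxylase, Mccc1 and Mccc2, were at -0.13 and -0.03. All 7 members of this route missed the threshold.

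**Figure D4:**
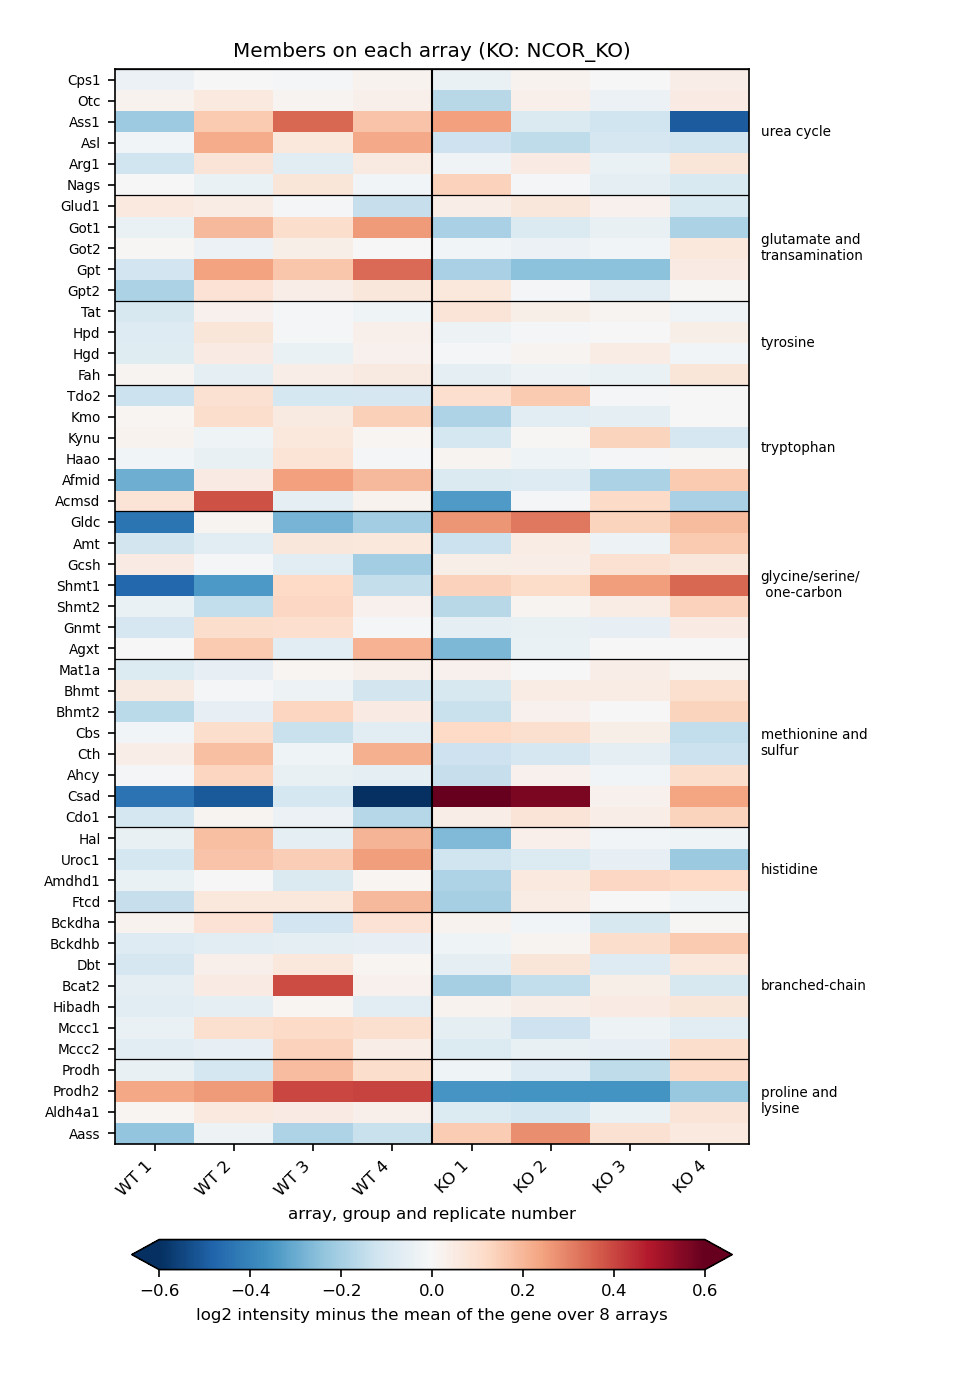
Log2 intensity of the 51 members on each of the 8 arrays, less the mean of the gene over all arrays (colour scale, log2, saturating at 0.6), with WT on the left, NCOR_KO on the right and pathways boxed. Prodh2 and Csad are the rows with the strongest split, most rows are pale, and WT replicate 1 and NCOR_KO replicate 1 have more blue cells than their groups.

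Deviations of the members from array to array were small. The median over the 51 genes of the deviation from a gene's own mean was lowest in WT replicate 1 (-0.05) and NCOR_KO replicate 1 (-0.05) and highest in WT replicate 2 (0.05) and NCOR_KO replicate 4 (0.04). Low and high arrays therefore occurred in both groups. The largest spread within a group was that of Csad in NCOR_KO, followed by Ass1 in NCOR_KO (SD 0.31, n = 4).

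Other genes of the same pathways, outside the 51, came from lists of 119 genes, of which 108 were measured. In these 2 rose, 4 fell and 102 did not pass, with a median log2 change of -0.03. The same rule called 1.65% of all genes and 4.38% of genes above a log2 intensity of 10. These lists were chosen with earlier results of these data known, so their count is a description and no result about the pathways. Ddc, the aromatic amino acid decarboxylase, rose 2.13-fold, from 7.46, 7.57, 7.91 and 7.66 in WT to 8.90, 8.78, 8.55 and 8.73 in NCOR_KO (log2 change 1.09 ± 0.10, adjusted p = 0.00103). Every NCOR_KO array was far above every control. Gch1, which starts the synthesis of the tetrahydrobiopterin used in phenylalanine hydroxylation, rose by 0.38 ± 0.06 (adjusted p = 0.0142, or 0.0585 without NCOR_KO replicate 2).

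Rhbg, an ammonium transporter of pericentral hepatocytes, read 8.38, 7.92, 8.43 and 8.49 in WT and 7.28, 7.27, 7.50 and 7.63 in NCOR_KO. It fell by 0.89 ± 0.13 (1.85-fold, adjusted p = 0.00921), with no overlap. Mtrr, the reductase that reactivates methionine synthase, fell by 0.38 ± 0.05 (adjusted p = 0.00903). Ddc and Rhbg passed in all 16 alternative fits, and Mtrr in 15.

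Hykk, the hydroxylysine kinase, fell by 0.45 ± 0.09 (adjusted p = 0.0414). That call was lost in 11 of 16 alternative fits, with adjusted p-values of 0.0509 to 0.121 when any single array was left out. Among regulators, Cebpa, a hepatocyte transcription factor known to act on urea cycle genes, fell by 0.35 ± 0.06 (adjusted p = 0.0158). Without WT replicates 1 and 4 or NCOR_KO replicates 2 and 3 in turn its adjusted p was 0.0510, 0.0549, 0.0536 and 0.0514. Hnf4a was at 0.04 ± 0.07.

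In the lists with no member past the threshold, the largest changes were those of Pipox, Ppm1k and Slc43a1. Pipox, a peroxisomal oxidase of sarcosine and pipecolate, was at -0.30 ± 0.06 (adjusted p = 0.0514) and passed in 4 of 16 alternative fits. Slc43a1, a transporter of large neutral amino acids, was at -0.71 ± 0.18 (adjusted p = 0.0833). It passed without NCOR_KO replicate 4 (adjusted p = 0.0447) and with arrays centred on their medians (0.0493). Ppm1k, the phosphatase that activates branched-chain ketoacid dehydrogenase, was at -0.27 ± 0.11 (adjusted p = 0.258).

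Since many of these enzymes are zoned along the lobule, marker lists were set beside them. Of 10 periportal genes outside the members 0 rose and 0 fell, with a median log2 change of -0.01. Of 12 pericentral genes 0 rose and 2 fell, Rhbg and Cyp1a2, with a median of -0.07 and 10 below 0. The adjusted rule called 0.834% of all genes lower, and 10641 of all 22180 genes were below 0. At an unadjusted p under 0.05 (limma), 4 pericentral genes were lower and 0 higher, and 3 periportal genes were lower and 1 higher. That rule marked 8.15% of all genes lower and 7.75% higher. The call of Rhbg is the one already given above, and the pericentral list was chosen with earlier results known. The 9 measured hepatocyte markers, Cps1 among them, had 0 members past the threshold with limma, and 0 at an unadjusted p under 0.05. Their mean log2 intensity was 12.77 to 12.80 on WT and 12.74 to 12.79 on NCOR_KO arrays.

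Endothelial markers were at 8.76 to 8.98 in WT and 8.99 to 9.13 in NCOR_KO, with 10 of 10 above 0, 1 that rose and a median change of 0.21. Of all 22180 genes, 11539 were above 0. At an unadjusted p under 0.05 (limma), 6 endothelial markers were higher and 0 lower, where 7.75% and 8.15% of all genes met that rule. By the same rule 2 cholangiocyte markers were higher and 1 lower, and 3 lymphocyte and neutrophil markers were higher. Of 6 cholangiocyte markers 1 rose and 1 fell, and of 9 lymphocyte and neutrophil markers 2 rose. Over all genes 0.816% rose and 0.834% fell. Macrophage markers, 8 in number, and stellate markers, also 8, had 0 past the threshold, as did the 1 erythroid marker measured. The part of these other cells in the members' values was not tested. Median array intensity lay between 41.0 and 44.1, and correlations between arrays across genes, which are not independent replicates, ran from 0.992 to 0.997.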

How the data were processed

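Total RNA of 8 livers was labelled with biotin and read on 1-colour Affymetrix Mouse Gene 2.0 arrays, per the labels. The authors deposited probe-set intensities on a linear scale, 5.42 to 13268, with RMA and Partek listed in the submitters' processing notes, their roles unstated. Genome build and program settings are not given in the sources used here. Depth has no counterpart here, and 4 arrays per group limit the precision. Log2 was taken with no further normalization. Of 41345 probe sets, 23521 had 1 annotated gene, and the brightest per gene by mean over the arrays gave 22180 genes. All 51 members matched a RefSeq gene identifier under the same symbol, and 3 of them had a second probe set.

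The fit was limma 3.58.1 in R 4.3.3 (lmFit and eBayes, intercept and group), with p-values adjusted by Benjamini-Hochberg over all genes at a threshold of 0.05. Log2 changes are NCOR_KO minus WT, with standard errors and 95% intervals of the fit. Pair ratios used exact permutation over 70 assignments. The main limma fit was run on simulated data with known changes, and the outcome is not reported here. The other steps were not run on simulated data. Members, gene lists and the arrays left out together were chosen with earlier results of these data known. Named with every array's value were members past the threshold, the largest change in each pathway without one, Cps1, Arg1, Tat, Bhmt and Gnmt, and some members beside these, such as Aass, Shmt1, Got1, Kmo, Cth, Cdo1 and Bckdhb, chosen after their values were seen. The fit was repeated with median centring, quantile normalization, array weights, trend and robust variance, bright genes only (at or above the median level), probe sets averaged per gene, a replicate block, each array left out, and WT replicate 2 with NCOR_KO replicate 1 left out. The table held no scanner files or slide labels, so background correction and slide were not varied. Figures used matplotlib 3.10.9 on Python 3.11.15.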

Additional observations from a re-analysis of the deposited data

Results flagged for a closer look

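In 7 of 102 sets of 4 arrays (51 members in each of the 2 groups) the highest or lowest array lay far from the other 3 (Dixon's test at its 95% critical value). Chance alone marks about 1 in 20 such sets. For Prodh2, NCOR_KO replicate 4 was at a log2 intensity of 9.46 and the others at 9.33, and it still lay below every control. For Gnmt, NCOR_KO replicate 4 was at 12.40 and the others at 12.30 to 12.31. For Agxt, NCOR_KO replicate 1 was at 10.44 and the others at 10.67 to 10.71. Among the controls, Gpt2 in WT replicate 1 was at 11.58 (others 11.81 to 11.85), and Mccc1 in WT replicate 1 at 9.16 (others 9.30 to 9.32). Tdo2 in WT replicate 2 was at 12.88 (others 12.66 to 12.69). Hibadh in WT replicate 3 was at 12.37 (others 12.29 to 12.30). These gaps are small in absolute size.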

How the results depend on the processing

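Prodh2 passed in all 16 alternative fits (adjusted p 4.09e-04 to 0.0127). Gldc passed in 7, and Csad, Aass, Asl and Shmt1, which did not pass, did so in 3, 3, 1 and 1. The other 45 members passed in none, and 34 of the 51 kept their sign throughout. The count of members that rose was 2 with array weights and with a trend and robust variance, 3 over bright genes only and at a threshold of 0.1, and 0 at 0.01 and with the replicate block. The count that fell was 2 with a trend and robust variance. The median change of the members was -0.050 with arrays centred on their medians, where that of all genes was -0.04. Without single arrays the count that rose ran from 0 to 1. The gene that rose was Gldc without WT replicate 2, Shmt1 without WT replicate 3 and Csad without NCOR_KO replicate 3. The count of all changed genes ran from 120 to 297 without single arrays. That count was 551 over bright genes only, 155 with the replicate block, 202 with WT replicate 2 and NCOR_KO replicate 1 both left out, 88 at a threshold of 0.01 and 807 at 0.1. Same-numbered arrays share only a number: their deviations from the group means correlated at -0.09 to 0.02 across genes. In 0 of the 4 numbers were the 2 arrays each other's best match. With that block the adjusted p of Gldc was 0.0633, and those of Gch1, Mtrr, Hykk and Cebpa were 0.0613, 0.0523, 0.0611 and 0.0565. The pair differences kept their sign in the 11 settings run, except Bhmt over Bhmt2 (-0.04 to 0.11). With the block Slc43a1 passed (adjusted p = 0.0220). Except where arrays or genes were left out, the cause of a changed call was not tested. All members had 4 arrays per group, but the interval of Ass1 was wide (-0.57 to 0.12). Its SE was 0.15, against a median of 0.07 over the members.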
